A study of Mus musculus with 12 samples.

Results

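Cells display peptides cut from their own proteins on MHC class I molecules, and cytotoxic T cells read that display. The proteasome cuts the proteins, and in cells exposed to interferon the subunits Psmb8 and Psmb9 replace the constitutive subunits Psmb5 and Psmb6 in its core. Tap1 and Tap2 form the transporter that carries the peptides into the endoplasmic reticulum, where Erap1 trims them and tapasin (Tapbp) helps to load them onto a heavy chain (H2-K1 or H2-D1 in mice) paired with beta-2 microglobulin (B2m). Nlrc5 is the transactivator that binds with other factors to the promoters of many of these genes. Tumour cells often carry less of this machinery than the tissue of origin.

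These 10 genes were followed in 2 mouse osteosarcoma cell lines. They were found by matching the accession of each array probe to RefSeq transcripts of the mouse assembly GRCm38.p6. In all, 12 of 39429 probes and 10 of 20144 named genes belonged to them. H2-K1 and Nlrc5 had 2 probes each and the other genes 1. For these 2 genes the values are those of the brighter probe unless the second probe is named. The annotation places 7 of the 10 genes on chromosome 17, among them the MHC genes Tap1, Tap2, Psmb8 and Psmb9. B2m lies on chromosome 2, Nlrc5 on chromosome 8 and Erap1 on chromosome 13.

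Dunn is a mouse osteosarcoma line of low metastatic potential, and LM8 is a metastatic line obtained from it by selection in mice. Cells were analysed at passage 25 (early Dunn) and 86 (late Dunn), and at passage 24 (early LM8) and 91 (late LM8), with 3 single-colour Agilent arrays for each of the 4 groups. The labels record no treatment or engineered allele in any group. Late cells came from the early cells of the same line by continued passaging. Each line was therefore passaged along 1 recorded course, and the spread between arrays covers 3 RNA samples of a frozen and thawed stock, not separate passaging courses or separate selections of LM8. The arrays of 1 replicate number shared a slide, and each of the 3 slides held 1 array of each group.

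All values below are relative log2 signals, the log2 of the processed signal of a probe minus that of the 75th percentile of its array, so that 1 unit is a 2-fold difference. A level of 1 probe cannot be set against that of another. The 75th percentile ran from 253.1 to 1699 signal units over the arrays and was higher on every LM8 array than on the Dunn arrays of its slide, and 39% to 59.6% of probes were well above background. The first late Dunn array stood apart from the other 2 of its group (r = 0.908 and 0.909 over all probes, against 0.985 between the others). All 6 measured osteoblast markers were well above background on all LM8 arrays, and none of them was below it on every array of a Dunn group. Of 6 leukocyte markers, 2 were well above background on all early Dunn arrays and 3 on all arrays of each other group, Itgam and Cd3e among them, while Ptprc was so on no Dunn array and Tyrobp on no LM8 array. The summed scaled signal of the leukocyte list ran from 5.39 to 7.96 on the LM8 arrays and from 6.37 to 16.1 on the Dunn arrays. The part of any such cells in the results was not tested. In bulk RNA, fewer cells that carry a transcript and less of it per cell cannot be told apart.

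Promoter sequences are shown for H2-K1, H2-D1, Tap1, Psmb9 and Psmb8, together with B2m and Erap1, which differed least. RefSeq promoters on GRCm38.p6, from 250 bases before to 50 bases after the start of the gene, were held for 8 of the 10 genes. Those of Tap2 and Nlrc5 were missing, and that of Tapbp is not shown. Capitals mark matches, on either strand, to 6 short motifs known from class I promoters. GGGGATTCCCC is a kappa B site. GAANNGAAA and GAAANNGAAA are paired core sites of interferon regulatory factors, the latter with the spacing of the interferon-stimulated response element. TTCNNNGAA is the gamma-activated site of interferon-gamma target genes, TGACG is a core bound by CREB and ATF proteins, and CCAAT is the box bound by NF-Y.
H2-K1 (chr17:34000298-34000597, minus strand): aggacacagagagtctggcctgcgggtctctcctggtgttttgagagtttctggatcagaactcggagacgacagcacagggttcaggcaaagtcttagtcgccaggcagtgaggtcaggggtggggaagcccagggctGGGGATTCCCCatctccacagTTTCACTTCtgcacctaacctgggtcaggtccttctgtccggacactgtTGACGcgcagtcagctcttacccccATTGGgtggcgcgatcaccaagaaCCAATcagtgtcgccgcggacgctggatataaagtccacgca
H2-D1 (chr17:35262844-35263143, plus strand): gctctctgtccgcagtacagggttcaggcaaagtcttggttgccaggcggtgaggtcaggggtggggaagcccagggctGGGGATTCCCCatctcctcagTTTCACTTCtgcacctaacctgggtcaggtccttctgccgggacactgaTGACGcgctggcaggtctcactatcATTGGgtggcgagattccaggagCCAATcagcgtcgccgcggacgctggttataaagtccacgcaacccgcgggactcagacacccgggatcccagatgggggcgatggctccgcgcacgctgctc
B2m (chr2:122147437-122147736, plus strand): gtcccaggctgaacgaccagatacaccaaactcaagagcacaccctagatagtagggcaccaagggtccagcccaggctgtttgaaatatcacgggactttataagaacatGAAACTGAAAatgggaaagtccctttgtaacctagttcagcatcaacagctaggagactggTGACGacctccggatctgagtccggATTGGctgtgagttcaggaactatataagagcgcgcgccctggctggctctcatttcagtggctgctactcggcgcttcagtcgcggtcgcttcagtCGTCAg
Tap1 and Psmb9 (chr17:34187306-34187605, plus strand, read in the direction of Tap1): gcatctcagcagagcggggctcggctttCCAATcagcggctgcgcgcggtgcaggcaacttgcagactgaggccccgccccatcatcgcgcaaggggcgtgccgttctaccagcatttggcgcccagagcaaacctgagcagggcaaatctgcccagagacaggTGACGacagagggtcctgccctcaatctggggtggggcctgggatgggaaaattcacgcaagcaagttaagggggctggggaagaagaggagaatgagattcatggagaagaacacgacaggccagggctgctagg
Psmb8 (chr17:34197945-34198244, plus strand): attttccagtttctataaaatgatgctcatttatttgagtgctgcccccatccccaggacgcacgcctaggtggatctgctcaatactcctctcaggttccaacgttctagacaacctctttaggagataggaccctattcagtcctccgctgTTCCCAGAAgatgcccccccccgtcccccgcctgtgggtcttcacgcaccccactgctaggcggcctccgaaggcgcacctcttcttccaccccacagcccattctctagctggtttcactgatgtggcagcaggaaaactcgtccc
Erap1 (chr13:74639603-74639902, plus strand): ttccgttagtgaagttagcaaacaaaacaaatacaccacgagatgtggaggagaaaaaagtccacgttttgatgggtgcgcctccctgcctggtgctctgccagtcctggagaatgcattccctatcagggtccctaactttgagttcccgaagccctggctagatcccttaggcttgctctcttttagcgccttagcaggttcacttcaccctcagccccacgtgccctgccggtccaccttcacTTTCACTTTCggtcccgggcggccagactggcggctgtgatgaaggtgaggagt

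The promoters of H2-K1 and H2-D1 held the same run of motifs. In H2-K1 the kappa B site began 111 bases, the paired site GAANNGAAA 90 bases and TGACG 41 bases before the start, followed by a CCAAT box. In H2-D1 the same series began 171 bases before the start. Tap1 and Psmb9 are read in opposite directions from starts 226 bases apart, and 275 bases of their windows were shared, so that 1 sequence with a TGACG and a CCAAT stands for both. B2m had GAAANNGAAA 139 bases before its start, and Erap1 had it across its start. Psmb8 had TTCNNNGAA and no other motif of the 6. The window of Tapbp, which is not shown, had CCAAT and no other. Of 32817 promoters of this length, 0.0305% held the kappa B site, 7.52% GAANNGAAA, 3.43% GAAANNGAAA, 8.29% TTCNNNGAA, 20.8% TGACG and 37.4% CCAAT. These matches are a description of the letters in the reference genome. The sequence of the lines themselves was not analysed here.

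The levels of most of the class I genes ran in 1 order. The group mean went down from early Dunn over late Dunn and early LM8 to late LM8 in 9 of the 10 genes, all but Erap1. The same order was found for 41.3% of all genes and for 34% of the genes well above background on all arrays. From early Dunn to late LM8, the ends of this order, the means differed 21.7-fold for Psmb9, 21.5-fold for Nlrc5, 17.8-fold for Psmb8 and 11.4-fold for Tap1. On its second probe Nlrc5 differed 5.71-fold. The means differed 4.72-fold for H2-K1 (9.5-fold on its second probe), 4.65-fold for H2-D1, 3.29-fold for Tap2 and 3.12-fold for Tapbp. B2m differed 1.76-fold and Erap1 1.31-fold. These folds between the ends are given as a description, with no test.

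**Figure D1:**
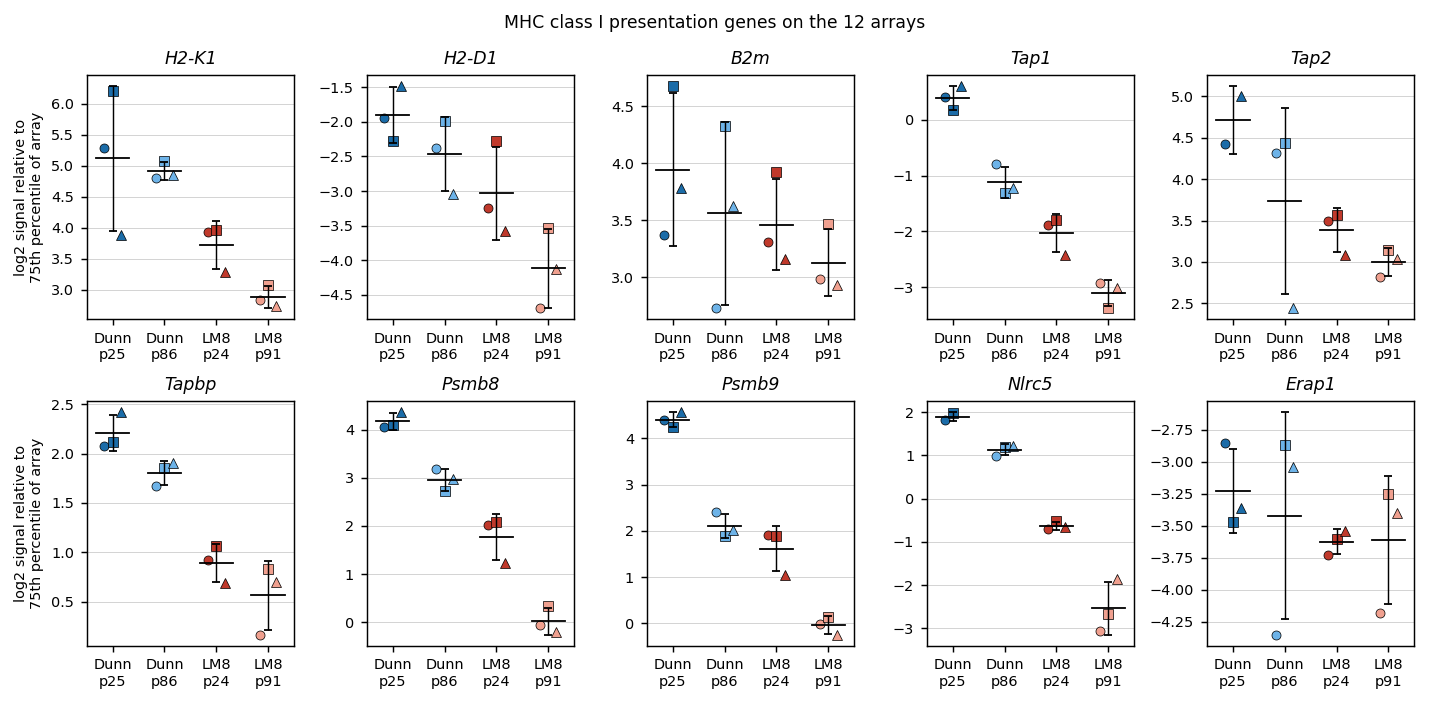
Relative log2 signal of the 10 class I presentation genes on the 12 arrays. Each panel is 1 gene, the x axis gives line and passage, circles, squares and triangles are replicates 1, 2 and 3, horizontal lines are group means and bars are SDs. Psmb8, Psmb9, Tap1 and Nlrc5 step down from early Dunn to late LM8, whereas the groups of B2m and Erap1 lie over each other in most comparisons.

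Psmb9 and Psmb8 are catalytic subunits of the immunoproteasome. Psmb9 (probe A_51_P369803) stood at 4.4, 4.25 and 4.57 on the early Dunn arrays and at 2.4, 1.9 and 2.02 on the late ones. On the LM8 arrays it stood at 1.91, 1.89 and 1.05 early and at -0.01, 0.15 and -0.24 late. The early and late arrays did not overlap in either line, and the late Dunn arrays met the early LM8 arrays. Lower late arrays without overlap were found for 17.1% of all genes in Dunn and for 17.6% in LM8 cells. Psmb8 (A_51_P345367) was measured at 4.06, 4.09 and 4.37 in early Dunn, 3.19, 2.73 and 2.97 in late Dunn, 2.01, 2.09 and 1.22 in early LM8 and -0.06, 0.33 and -0.21 in late LM8. All 4 groups of Psmb8 were apart from each other, a pattern that was not counted over all genes.

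With passage, Psmb8 fell by 1.76 ± 0.3 (SE) in LM8 cells, a factor of 3.38 (adjusted p = 0.0379), and Psmb9 fell by 1.65 ± 0.29, a factor of 3.14 (adjusted p = 0.0416). Adjusted p-values are those of limma, corrected by Benjamini-Hochberg over all probes. In Dunn cells the same differences were -1.21 ± 0.3 for Psmb8 (adjusted p = 0.591) and -2.3 ± 0.31 for Psmb9 (adjusted p = 0.22), so neither passed the threshold of 0.05 there. The differences within the 3 slides were all negative in both lines. For Psmb9 they were -2, -2.34 and -2.55 in Dunn cells and -1.92, -1.74 and -1.3 in LM8 cells.

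Between the lines, both subunits were lower in LM8 cells at either passage. At the early passages the difference was -2.79 ± 0.36 for Psmb9 (6.9-fold, adjusted p = 0.0113) and -2.4 ± 0.36 for Psmb8 (5.27-fold, adjusted p = 0.0196). At the late passages it was -2.14 ± 0.25 for Psmb9 (4.41-fold, adjusted p = 0.0155) and -2.95 ± 0.26 for Psmb8 (7.71-fold, adjusted p = 0.00693). The lines did not overlap at either passage for either gene. Lower LM8 arrays without overlap were found for 49.5% of all genes early and for 44.6% late.

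The third inducible subunit, Psmb10, which is also part of the immunoproteasome core, moved far less. It ran from 3.03 to 3.6 on the early Dunn arrays and from 2.3 to 2.71 on the late LM8 arrays. It was 0.69 ± 0.18 lower in LM8 with passages pooled (adjusted p = 0.0216), a call lost without the second or the third late LM8 array (adjusted p up to 0.0552). With passages pooled, the constitutive subunits had smaller differences between the lines than Psmb8 (-2.67) and Psmb9 (-2.46). The difference was -0.28 (95% interval -0.73 to 0.16) for Psmb5, which Psmb8 replaces, and -0.51 (-1.18 to 0.17) for Psmb6, which Psmb9 replaces. The interval of Psmb6 reaches past a 2-fold difference. The second probe of Psmb5 had group means of 5.09 in early Dunn, 4.69 in late Dunn, 4.39 in early LM8 and 4.2 in late LM8. Psmb7, which Psmb10 replaces, was 0.57 ± 0.21 lower (adjusted p = 0.0425), a call that was lost without any 1 array other than the second or the third late Dunn array (adjusted p up to 0.0929). The median over all genes was -0.68 in the same comparison, and -0.35 over the 9543 genes well above background on all arrays. The probe of Psmb6 was flagged on every array of the second slide and that of Psmb5 on 1 early Dunn array, and these spots were left out.

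The transporter genes gave different results, and no test compared them with each other. Tap1 (A_51_P100327) stood at 0.4, 0.18 and 0.61 in early Dunn, -0.8, -1.32 and -1.23 in late Dunn, -1.88, -1.79 and -2.43 in early LM8 and -2.93, -3.38 and -3.02 in late LM8. All 4 groups were apart, a pattern that was not counted over all genes. Tap2 (A_55_P2017645) gave 4.43 and 5.01 on 2 early Dunn arrays, its spot on the other being flagged and left out. It gave 4.32, 4.44 and 2.44 in late Dunn, 3.5, 3.57 and 3.08 in early LM8 and 2.82, 3.15 and 3.03 in late LM8. The third late Dunn array lay below all LM8 arrays, while the other Dunn arrays lay above them.

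Tap1 was lower in LM8 at both passages, by a difference of -2.43 ± 0.33 early (5.39-fold, adjusted p = 0.0139) and -1.99 ± 0.26 late (3.98-fold, adjusted p = 0.0221). Its differences with passage, -1.51 ± 0.31 in Dunn (adjusted p = 0.463) and -1.08 ± 0.25 in LM8 cells (adjusted p = 0.113), did not pass. The passages did not overlap in either line. Among all genes, 17.1% in Dunn and 17.6% in LM8 cells were lower in this way. No comparison of Tap2 passed. Its difference between the lines was -1.34 early (95% interval -2.31 to -0.36, adjusted p = 0.0738) and -0.73 late (-2.21 to 0.74), and it was positive on the unscaled deposited signals.

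Tapasin holds the empty heavy chain at the transporter until a peptide fits. Tapbp (A_55_P2149763) stood at 2.08, 2.12 and 2.42 in early Dunn and at 1.67, 1.85 and 1.9 in late Dunn. It stood at 0.92, 1.07 and 0.69 in early LM8 and at 0.17, 0.83 and 0.7 in late LM8. Every Dunn array lay above every LM8 array, as was the case for 14.1% of all genes. With passages pooled Tapbp was lower in LM8 by a difference of -1.28 ± 0.2 (2.42-fold, adjusted p = 0.00158). Its differences within single passages were of the same size, -1.31 early (adjusted p = 0.0646) and -1.24 late (adjusted p = 0.0858), and did not pass. Its difference with passage was -0.4 in Dunn (95% interval -1.11 to 0.31) and -0.33 in LM8 cells (-0.91 to 0.26).

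Of the heavy chains, H2-K1 was bright on all arrays. Its main probe (A_51_P198434), spotted 10 times on each array, gave 5.28, 6.2 and 3.88 in early Dunn, 4.8, 5.08 and 4.85 in late Dunn, 3.93, 3.96 and 3.28 in early LM8 and 2.83, 3.08 and 2.73 in late LM8. The early Dunn arrays spread widely, and the scanner software flagged 6 of the 10 spots on the third of them and 4 on the second. The second probe (A_55_P2049647) gave 5.16, 5.09 and 3.62 in early Dunn, 3.8, 3.77 and 3.35 in late Dunn, 2.36, 2.64 and 1.74 in early LM8 and 1.08, 1.62 and 1.43 in late LM8. On both probes the late Dunn arrays lay above all LM8 arrays.

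H2-K1 was lower in late LM8 than in late Dunn by a difference of -2.03 ± 0.23 (4.08-fold, adjusted p = 0.0128), and its second probe gave -2.27 (adjusted p = 0.0155). At the early passages the difference of -1.4 ± 0.61 did not pass (adjusted p = 0.124), and neither did the second probe at -2.38 ± 0.52 (adjusted p = 0.0577). With passage, H2-K1 differed by -0.21 in Dunn (95% interval -1.77 to 1.35) and by -0.84 in LM8 cells (-1.45 to -0.24, adjusted p = 0.216). The second probe gave -0.98 in Dunn (-2.26 to 0.29) and -0.87 in LM8 cells (adjusted p = 0.26). The sign of the Dunn value of the main probe depended on the scaling, being 0.12 after normexp background correction and 0.77 without scaling.

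H2-D1 (A_65_P19395) was read from a single probe of low signal. It gave -1.94, -2.28 and -1.48 in early Dunn, -2.38, -1.99 and -3.04 in late Dunn, -3.25, -2.28 and -3.57 in early LM8 and -4.69, -3.54 and -4.12 in late LM8. Late LM8 lay below all Dunn arrays, and the early LM8 arrays overlapped with those of both Dunn groups. The difference between the lines passed with passages pooled (-1.39 ± 0.38, 2.62-fold, adjusted p = 0.0246) and within neither passage (adjusted p = 0.0972 early and 0.129 late). Class I heavy chain genes are near-identical copies of each other, so a probe of one may read others too, and how well the probes fit the alleles of these lines was not tested.

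B2m, the light chain shared by all class I molecules, did not pass in any comparison. It gave 3.37, 4.68 and 3.78 in early Dunn, 2.73, 4.33 and 3.63 in late Dunn, 3.31, 3.92 and 3.16 in early LM8 and 2.99, 3.47 and 2.93 in late LM8. The second slide was highest in each group, and all 4 groups overlapped. With passages pooled the difference between the lines was -0.46 (95% interval -1.15 to 0.24, adjusted p = 0.239), and it was positive on the unscaled deposited signals. Within a passage the interval of this difference ran from -1.53 to 0.57 early and from -1.59 to 0.72 late.

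Erap1 (A_65_P04284) was near the lower end of the measured range. It gave -2.85, -3.47 and -3.36 in early Dunn, -4.35, -2.87 and -3.04 in late Dunn, -3.73, -3.6 and -3.54 in early LM8 and -4.18, -3.25 and -3.4 in late LM8. Only the first late Dunn array was not well above background. With passages pooled the difference was -0.29 (95% interval -0.89 to 0.31, adjusted p = 0.38), and its sign turned to 0.08 after quantile normalization.

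The transactivator Nlrc5 was lower in LM8 with passages pooled, by a difference of -3.02 ± 0.5 on its main probe (8.1-fold, adjusted p = 0.00247) and of -1.85 on its second probe (adjusted p = 0.00106). The main probe (A_55_P2016034) gave 1.82 and 1.97 on 2 early Dunn arrays, the third being flagged and left out, and 0.98, 1.2 and 1.22 on the late Dunn arrays. It gave -0.71, -0.53 and -0.66 in early LM8 and -3.07, -2.66 and -1.87 in late LM8. No groups overlapped. The second probe (A_66_P113043) ran through the same order, from -2.07, -2.24 and -1.4 in early Dunn to -4.74, -4.39 and -4.13 in late LM8.

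Nlrc5 was lower in LM8 by a difference of -2.53 ± 0.34 at the early passages (5.77-fold, adjusted p = 0.0207) and of -3.66 ± 0.36 at the late ones (12.6-fold, adjusted p = 0.00934). The second probe gave -2.05 (adjusted p = 0.0276) and -1.65 (adjusted p = 0.044). With passage it fell by 1.9 ± 0.32 in LM8 cells on the main probe, a factor of 3.73 (adjusted p = 0.0368), while the second probe gave -0.46 (95% interval -1 to 0.08, adjusted p = 0.295), so the probes differ on the size of this change. In Dunn cells the difference was -0.77 (95% interval -1.66 to 0.12, adjusted p = 0.766), and -0.86 on the second probe.

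**Figure D2:**
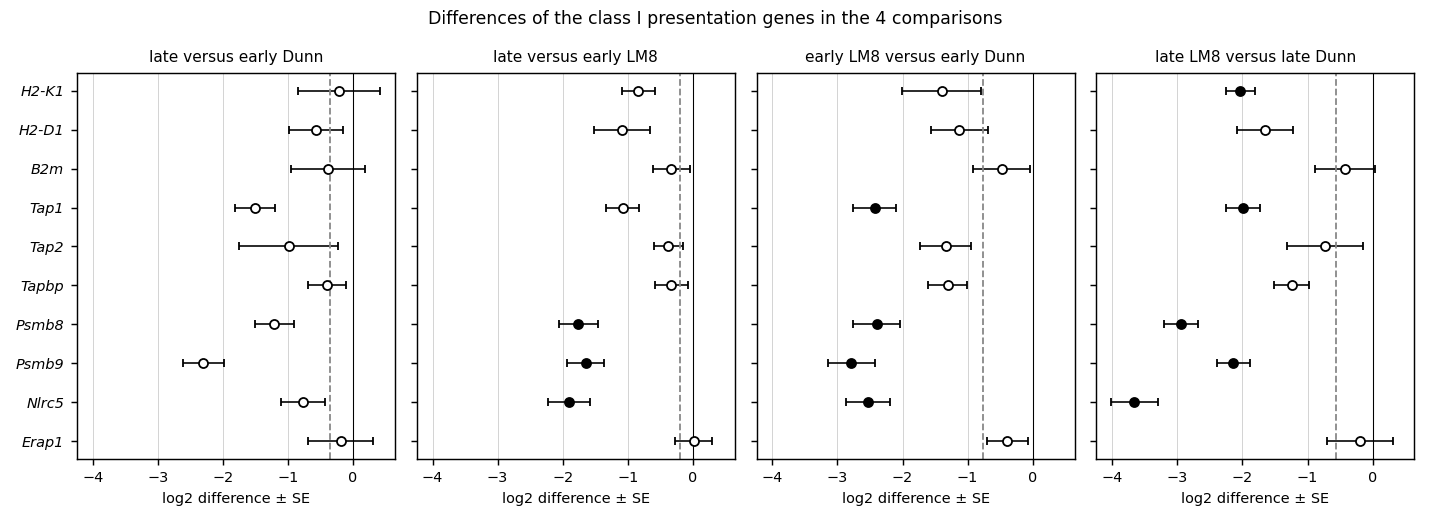
Log2 differences (points) with their SEs (bars) of the 10 genes in the 4 comparisons of single groups. Filled points have an adjusted p under 0.05 and the dashed line is the median over all genes. Psmb8, Psmb9 and Nlrc5 are filled in 3 of the 4 panels, and B2m and Erap1 are open in each.

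Counted over the 10 genes, the comparisons gave the following. In late against early Dunn cells 0 of 10 passed in limma, as in an ordinary t-test without limma's moderation after Benjamini-Hochberg correction, and 0.00497% of all genes passed. In limma 3 genes, Psmb9, Tap1 and Psmb8, had an unadjusted p under 0.05. All 3 were over 2-fold lower, a rule met in that direction by 3.67% of all genes.

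In late against early LM8 cells 3 of 10 were lower (Psmb8, Psmb9 and Nlrc5), against 1.81% of all genes, and 5 were over 2-fold lower at an unadjusted p under 0.05, against 4.93%. These 3 calls lay close to the threshold. With the slide as a block 0 passed, with adjusted p of 0.0569 for Psmb8, 0.0636 for Psmb9 and 0.0941 for Nlrc5. Without the first or second array of either LM8 group 0 passed, without the third late array 1 and without the third early array 2. The differences themselves kept their sign within each slide.

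Early LM8 cells were lower than early Dunn cells in 4 of 10 genes (Psmb9, Tap1, Psmb8 and Nlrc5), against 3.35% of all genes. Late LM8 cells were lower than late Dunn cells in 5 of 10, these 4 and H2-K1, against 2.64%. The 2-fold rule gave 7 of 10 in each, against 32.8% of all genes early and 9.04% late. With the slide as a block 0 of 10 passed in either comparison, with adjusted p from 0.0671 to 0.0815 for the 4 early calls and from 0.0757 to 0.114 for the 5 late ones. Leaving out any 1 early LM8 array also gave 0 of the early calls, and leaving out the third early Dunn array gave 1. In the late comparison 1 call was left without any 1 of the late LM8 arrays or the third late Dunn array, 3 without the second late Dunn array and 6 without the first late Dunn array, the one that stood apart.

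With passages pooled, 7 of 10 genes were lower in LM8 (H2-K1, H2-D1, Tap1, Tapbp, Psmb8, Psmb9 and Nlrc5), and 7 with the slide as a block. The background was high, since 39.2% of all genes and 32.9% of those well above background on all arrays passed in this direction. The 2-fold rule was met by 7 of 10, against 33.5% of all genes and 10.3% of the bright ones. The median difference was -1.55 over the 10 genes, and after quantile normalization it was -1.45, where that over all genes was -0.17. None of the 7 changed sign under another scaling. The comparisons share arrays, so their counts are not independent of each other.

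Whether passage changed the lines unequally was tested as the interaction of line with passage, which passed for 0 of 10 genes in limma, against 0.616% of all genes. At an unadjusted p under 0.05 and over 2-fold lower there was 1 gene, against 2.07% of all genes. This was Nlrc5, whose main probe gave a difference of -1.13 ± 0.46 in limma (LM8 minus Dunn, adjusted p = 0.816). Its second probe gave 0.4, in the other direction. Passage changes that passed in LM8 and not in Dunn cells were therefore not shown to differ between the lines.

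The other genes of presentation are counted here against the same high background of 39.2% of all genes lower in LM8 with passages pooled. Of 15 measured class I heavy chain and class I-like genes, 9 were lower and 1 was higher in LM8 with passages pooled, and the median was -1.52. The quantile-normalized median was smaller, at -0.76, and H2-Q1, 1 of the 9, was well above background on no array. H2-Q6 and H2-Q7, non-classical heavy chains, also went down in this order. H2-Q7 stood at 3.87, 4.16 and 3.83 in early Dunn, 3.05, 2.74 and 2.53 in late Dunn, 1.92, 2 and 1.09 in early LM8 and 0.51, 0.92 and 0.6 in late LM8. It was lower in LM8 by a difference of -2.28 early (adjusted p = 0.0242) and -2.1 late (adjusted p = 0.017), and H2-Q6 by -2.17 (adjusted p = 0.0341) and -2.52 (adjusted p = 0.0128). H2-Q2 was also lower in late LM8 (-1.99, adjusted p = 0.0227). With the slide as a block none of these 5 calls passed (adjusted p of 0.0768 and 0.123 for H2-Q7, 0.0815 and 0.11 for H2-Q6 and 0.133 for H2-Q2). Each was also lost without any 1 of the LM8 arrays compared and without 1 or 2 of the Dunn arrays (adjusted p up to 0.16). These genes share sequence with H2-K1 and H2-D1 and are not independent readings.

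In the next lists the shares lay around that background or rested on a few genes, and are no result about the lists. Of 7 chaperones of the loading complex, 3 were lower in LM8 with passages pooled. Tapbpl, a relative of tapasin that edits peptides, was lower by a difference of -1.42 ± 0.26 (adjusted p = 0.00371) and calreticulin (Calr) by -1.1 ± 0.22 (adjusted p = 0.00604). Of 4 further immunoproteasome subunits and activators, 3 were lower, all by less than 2-fold. Pomp, which assembles proteasomes, was higher by 1.08 ± 0.27 on its brighter probe (adjusted p = 0.0171). The second probe of Pomp showed no such rise. Its group means were 2.05 in early Dunn, 1.63 in late Dunn, 1.89 in early LM8 and 1.7 in late LM8. Of the 4 constitutive counterparts 1 was lower. Of 6 peptide trimming peptidases 3 were lower, among them Blmh (-1.07, adjusted p = 0.00866) and Tpp2 (-1.03, adjusted p = 0.00774). In the passage comparisons none of the genes of these 4 lists passed, in either line.

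**Figure D3:**
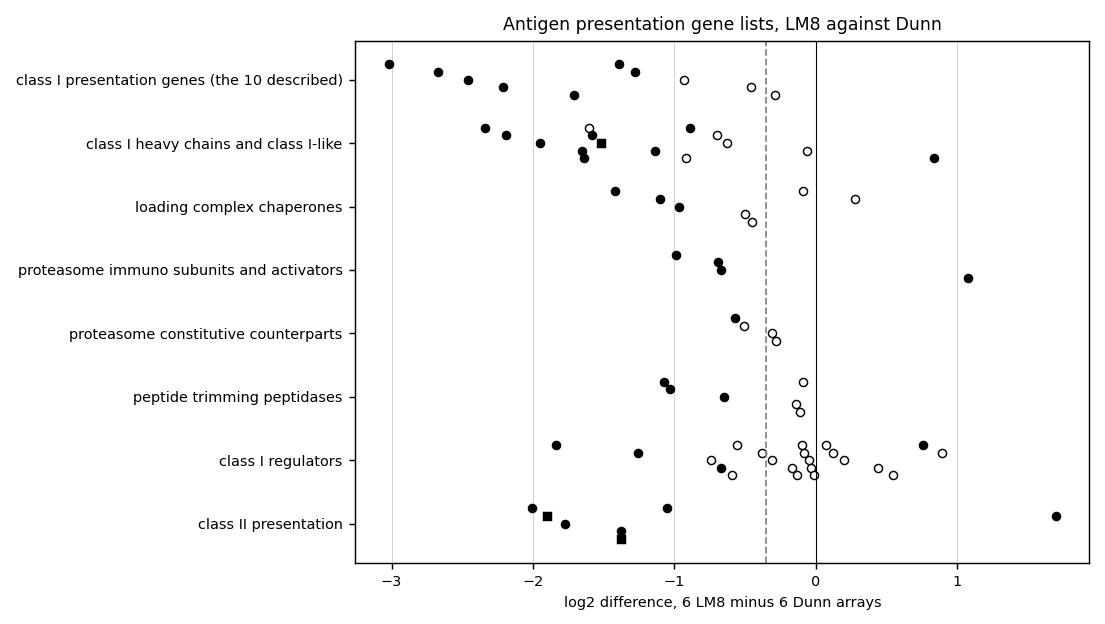
Log2 differences between LM8 and Dunn with passages pooled, 1 point a gene, in 8 lists of presentation genes. Filled symbols have an adjusted p under 0.05, squares are genes well above background on no array, and the dashed line is the median of the genes well above background on all arrays (-0.35). The 10 genes, the class I heavy chains and the class II genes (median -1.38) reach further to the left than the loading chaperones, peptidases and constitutive proteasome subunits. The class II median includes genes well above background on no array, and was -0.71 after quantile normalization.

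Of 22 regulators of class I genes, 3 were lower and 1 was higher in LM8 with passages pooled, again against 39.2% of all genes lower, with a median of -0.09. Nfkb1, the p50 subunit of NF-kappa B, stood between 0.53 and 1.04 on all Dunn arrays, between -0.82 and -0.68 in early LM8 and between -1.61 and -1.21 in late LM8. Its difference between the lines was -1.84 ± 0.21 pooled (adjusted p = 0.000131), -1.58 early (adjusted p = 0.0422) and -2.09 late (adjusted p = 0.013). With the slide as a block the pooled call passed (adjusted p = 0.000344) and the calls within a passage did not (0.0815 early and 0.104 late). Within a passage they were also lost without any 1 of the LM8 arrays compared and without the third Dunn array, and early also without the first (adjusted p up to 0.182). Nfya, a subunit of the factor that binds CCAAT, was lower by a difference of -1.26 ± 0.19 pooled (adjusted p = 0.000963). Irf1, an interferon-induced activator of class I genes, was lower by 0.67 ± 0.17 on the log2 scale pooled (adjusted p = 0.0193). The median over all genes was -0.68 in the same comparison, and Irf1 did not pass within a passage. Its pooled call was lost with normexp background correction, with flagged spots kept and with scaling by bright probes. On the unscaled deposited signals its difference was positive.

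Irf9, a DNA-binding factor of the interferon response, was the 1 regulator that passed with passage. It stood at 1.08, 1.06 and 0.49 in early LM8 and at -1.31, -1.4 and -1.18 in late LM8. It fell by 2.17 ± 0.23 (adjusted p = 0.00557, and 0.0478 with the slide as a block). The call was lost in an ordinary t-test without limma's moderation. In Dunn cells it went from 0.41, 0.75 and 0.85 to -0.47, -0.38 and -0.11, a difference of -0.99 ± 0.3 that did not pass (adjusted p = 0.733). Irf9 did not follow the order of the class I genes, since early LM8 was not below early Dunn (0.21, 95% interval -0.57 to 0.99).

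The products of class II genes present peptides to helper T cells. With passages pooled 6 of 7 were lower in LM8 and 1 (H2-Eb1) was higher, against 39.2% of all genes lower. Their median was -1.38, and -0.71 after quantile normalization, where the medians over all genes were -0.68 and -0.17. H2-Aa and H2-Ab1, both among the lower genes, were well above background on no array, and Ciita on at most 2 arrays of each group. The median of the list thus includes signals near background. H2-Eb1 rose with passage in LM8 cells by 2.53 ± 0.18 (adjusted p = 0.00124), from -4.16, -4.17 and -4.08 to -1.53, -1.71 and -1.57. It was higher in late LM8 than in late Dunn by 2.97 ± 0.38 (adjusted p = 0.0203), while H2-DMb1, a chain of the class II peptide editor, was lower by a difference of -1.77 (adjusted p = 0.0385). With the slide as a block the passage change passed (adjusted p = 0.0187), and the late comparison did not for H2-Eb1 (0.114, and 0.121 after quantile normalization) or H2-DMb1 (0.146). Both late calls were also lost without any 1 late LM8 array or the second late Dunn array, and that of H2-DMb1 without the third (adjusted p up to 0.218). In LM8 cells the passage change of H2-Eb1 was thus opposite in direction to those of Psmb8, Psmb9 and Nlrc5.

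**Figure D4:**
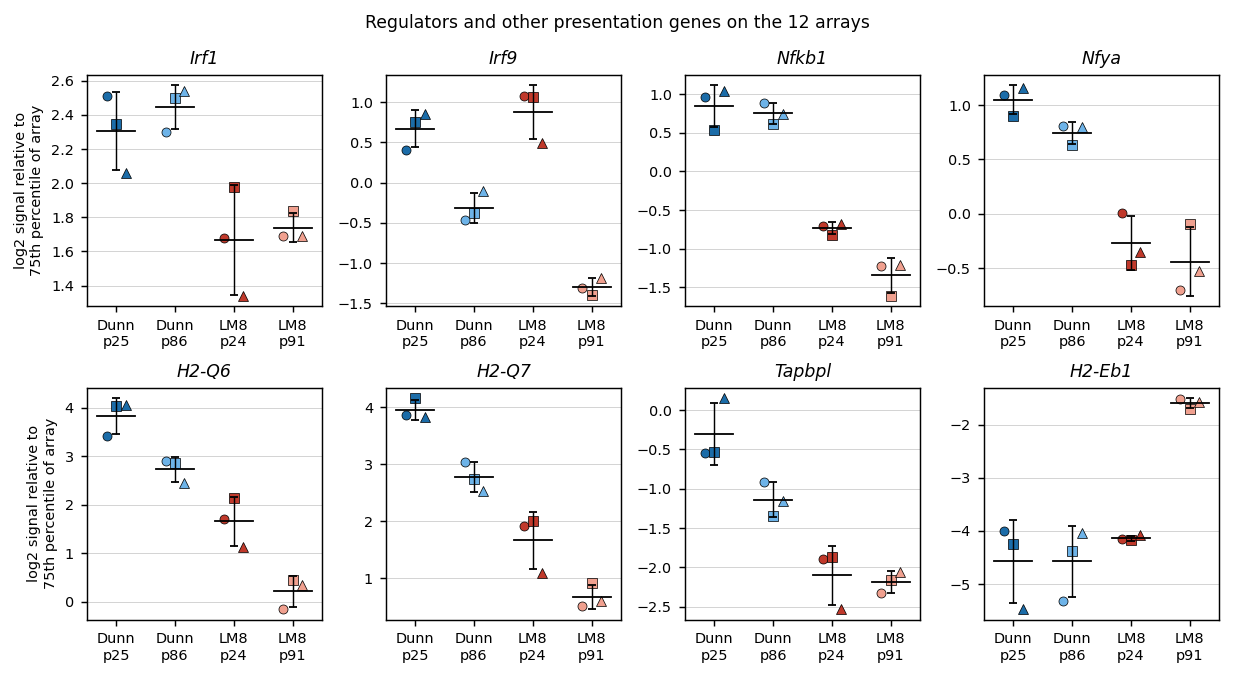
Relative log2 signal of 4 regulators (upper row) and 4 other presentation genes (lower row) on the 12 arrays, drawn as in the plot of the class I genes. Nfkb1 and Nfya separate the lines at both passages, Irf9 drops in late LM8, H2-Q6 and H2-Q7 step down through the groups, and H2-Eb1 is highest in late LM8.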

How the data were processed

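Total RNA of cultured cells was labelled with Cy3 and hybridised to 12 Agilent mouse 4x44k v2 arrays. The authors deposited the Feature Extraction output (version 10.7.3), that is, per spot, a background-subtracted intensity (the processed signal) not scaled across arrays. A further deposited table of the authors holds the same intensity unscaled (largest relative difference 0.497%). The file headers name the build mm9. 1 label field calls the lines human, while the organism, the descriptions and the array are mouse, and they were treated as mouse. For RNA extraction the labels name RNeasy and the paper TriReagent.

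After removal of control spots and outlier flags (1.13%), log2 intensities of 43020 spots were averaged into 39429 probes, from which the array's 75th percentile was taken off. Accessions were matched to RefSeq names on GRCm38.p6 (67.4% of probes), and no coordinates were converted. Comparisons used lmFit and eBayes of limma 3.58.1 (R 4.3.3) on the arrays of the groups compared, without a block, with Benjamini-Hochberg adjustment over all probes. The interaction was fitted over all 12 arrays. The count rules were an adjusted p under 0.05, and a difference over 2-fold whose unadjusted p was under 0.05. Precision is limited by the number of arrays.

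The replicate number marks the slide in the file headers. Deviations of arrays with the same number from their group means correlated from -0.23 to 0.683 over 18 pairs, and in 12 pairs over 0.1. The slide was therefore also fitted as a block, which is given where it changed a call. The alternatives were quantile normalization, normexp background correction (offset 50, on median signals, since the files hold no mean signals), the deposited table, a floor and a filter on dim probes, 1 fit over all 12 arrays, an ordinary t-test (the methods' t-test, since the methods name a t test within limma), the mean of a gene's probes and leaving out each array. Flagged spots kept and scaling by the median of bright probes were chosen after seeing the data. The steps were tested on simulated data.

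The 10 genes and the lists were chosen with earlier results of these data known. Of the other lists, the genes named by rule were at most 3 per list and comparison (adjusted p under 0.05, over 2-fold, brighter group well above background on all arrays), and Psmb5, Psmb6, Psmb7 and Irf1 in every case. Some genes of the lists are counted and not reported here by name. Psmb10, H2-Q1 the undetected class II genes, Itgam, Cd3e, Ptprc and Tyrobp were named after their values were seen. Of the marker lists, the osteoblast list (6 measured) gave 1 gene higher and 2 lower in LM8 with passages pooled, the leukocyte list (6 measured) 0 higher and 2 lower, and the endothelial list (3 measured) 0 in either direction. Tables were handled with data.table version 1.17.8, jsonlite 2.0.0 and pandas 2.3.3, and plots were drawn with matplotlib 3.10.9 in Python 3.11.15.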

Additional observations from a re-analysis of the deposited data

Results flagged for a closer look

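In Ifnar2, a subunit of the type I interferon receptor, the late minus early difference was positive on all 3 slides in Dunn cells (0.18, 1.37 and 2.7) and negative on all 3 in LM8 cells (-0.46, -0.3 and -0.54). The interaction of line and passage was -1.85 and did not pass in limma (adjusted p = 0.74). Lnpep, an aminopeptidase, went the other way, at -0.08, -0.01 and -0.52 in the parental Dunn line against 0.17, 0.13 and 0.12 in the LM8 line, and its interaction was 0.34 (adjusted p = 1). Both were picked from all genes of the lists because the differences on the 3 slides had one sign in Dunn and the other in LM8 cells. How often this pattern occurs over all genes was not counted, so it is no evidence of a difference between the lines. The early Dunn arrays of Ifnar2 spread widely, from -0.89 to 1.64.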

How the results depend on the processing

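Among the 10 genes, no difference that passed changed its sign under any alternative, including the deposited table. Differences of the same genes that had not passed did in part, as given below. The counts of genes passing moved more than the differences. Out of 10 genes, late against early Dunn gave 1 after quantile normalization and 2 with the filter on dim probes and in 1 fit over all 12 arrays, against 0. Late against early LM8 gave 0 with the deposited table, the methods' t-test and the replicate block, against 3. Early LM8 against early Dunn gave 0 with the deposited table and the replicate block, against 4, and late LM8 against late Dunn gave 0 with both, against 5. The pooled comparison gave 3 with the deposited table, against 7, and 7 with the replicate block. Leaving out 1 array gave 0 for Dunn, 0 to 2 for LM8, 0 to 6 early, 1 to 6 late, 6 to 8 pooled and 0 for the interaction. By the 2-fold rule the deposited table gave 1 for Dunn, 3 for LM8, 3 early and 4 pooled, and normexp gave 3 for LM8. Nlrc5 met this rule in the interaction under the main setting, and 0 genes did with normexp, the deposited table or the mean of a gene's probes. Leaving out 1 array gave 3 for Dunn, 3 to 6 for LM8, 5 to 7 early, 7 to 8 late, 7 to 8 pooled and 0 to 1 for the interaction by this rule.

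The scaling moved the median over all probes, which for the pooled comparison was -0.8 as reported, -0.14 after quantile normalization, -1.15 with normexp and 0.39 in the deposited table. Differences that had not passed turned positive in the deposited table. For late against early Dunn these were H2-K1 (0.77), H2-D1 (0.41), B2m (0.59), Tap2 (0.27), Tapbp (0.58) and Erap1 (0.79), and for LM8 B2m (0.05), Tap2 (0) and Tapbp (0.06). For the early comparison of the lines they were H2-K1 (0.09), H2-D1 (0.35), B2m (1), Tap2 (0.43), Tapbp (0.17) and Erap1 (1.09), for the late one B2m (0.46), Tap2 (0.16) and Erap1 (0.7), and pooled B2m (0.73), Tap2 (0.27) and Erap1 (0.89). Of the other genes named pooled, Calr (0.09), Psmb10 (0.5), Psmb5 (0.92), Psmb6 (0.74), Psmb7 (0.62), Blmh (0.12), Tpp2 (0.16) and Irf1 (0.52) were positive in that table, and Psmb5 also with normexp (0.02). Of 21 calls named for such genes, 9 were lost with the replicate block, while 11 were lost and 6 turned sign in that table. Signs also turned for Erap1 after quantile normalization (-0.04 in LM8 with passage, 0.62 late and 0.08 pooled) and normexp (-0.1 in LM8), and in Dunn for H2-K1 with normexp (0.12) and scaling by bright probes (0) and for Erap1 with the latter (0.02). Without 1 array, the Dunn difference ran from -0.83 to 0.33 for H2-K1, from -0.76 to 0.03 for B2m and from -0.47 to 0.27 for Erap1, and for Erap1 from -0.17 to 0.29 in LM8 and from -0.66 to 0.09 between the late lines. The cause of these changes was not tested. Signals near background, as for Erap1, limit what the arrays can show.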
